A study of Mus musculus with 12 samples.

Results

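The genes described here are 10 genes of fatty acid and triglyceride synthesis, Acly, Me1, Acaca, Fasn, Thrsp, Elovl6, Scd1, Scd2, Dgat1 and Dgat2. They were taken by name from the 55536 genes of the 2 deposited tables, and all 10 were found in both. Their RNA was read in the stromal vascular fraction (SVF) of the inguinal fat of male mice on a mixed C57BL6/J-129SV background, kept at room temperature, with 1 library per mouse and 4 libraries in each of 3 groups. The first group is 12-month Pdgfrb-KO mice, which carry Sma-CreERT2 and Pdgfrb fl/fl and received tamoxifen, so that the PDGF receptor gene Pdgfrb is deleted only in cells that express Acta2 (Sma). Smooth muscle of the vessels also expresses Acta2, so the deletion is not limited to adipocyte progenitors. The second group is 12-month controls and the third is 2-month controls. The labels call both control groups wild type, whereas the study describes its 12-month controls as Sma-CreERT2 mice with intact Pdgfrb. Whether the sequenced 2-month or 12-month controls carried Cre or received tamoxifen is not given in the labels. The study set its 12-month Pdgfrb-KO profiles against the 12-month control data of its age comparison. Whether these libraries were prepared and sequenced together is not given in the study or the labels. A difference between runs, if any, cannot be told apart from genotype. Below, Pdgfrb deletion is the name of the comparison of 12-month Pdgfrb-KO with 12-month controls. The comparisons asked how SVF differs with age, and how it differs at 12 months when Pdgfrb is deleted in the Sma lineage.

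Fatty acids are built in the cytosol from acetyl-CoA. ATP citrate lyase (Acly) makes acetyl-CoA from citrate, malic enzyme (Me1) supplies NADPH, acetyl-CoA carboxylase (Acaca) makes malonyl-CoA, and fatty acid synthase (Fasn) joins these units into palmitate. Elovl6 lengthens palmitate, the stearoyl-CoA desaturases Scd1 and Scd2 introduce a double bond, and the acyltransferases Dgat1 and Dgat2 add the last acyl chain of a triglyceride. Thrsp is a small nuclear protein that accompanies this pathway and is not itself one of its enzymes. The pathway is best known in liver and in mature adipocytes, where insulin and the transcription factors SREBP-1c, ChREBP and LXR switch it on. The SVF is what is left of the depot when floating adipocytes have been removed, so these genes are read here in progenitors, vascular cells and immune cells, together with whatever adipocyte RNA remained. Whether the cells were kept in culture medium before their RNA was taken is not clear from the sources used here.

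Each value is a normalized count, which is the count of a gene after scaling by a size factor for the library, rounded to a whole number. The normalized counts of a library summed to 19.6 to 21.9 M in 12-month Pdgfrb-KO, 19.9 to 20.6 M in 12-month controls and 20.3 to 21.3 M in 2-month controls. The counts behind them, estimated from the steps that division leaves among low values, were 13.8, 15.6, 16.9 and 19.97 M in 12-month Pdgfrb-KO, 21.0 to 29.0 M in 12-month controls and 21.4 to 24.8 M in 2-month controls, so that replicates 1 to 3 of 12-month Pdgfrb-KO were shallower than every control. The estimate for 12-month Pdgfrb-KO replicate 4 could also be 39.9 M. Pdgfrb itself had 1882, 2145, 1707 and 1749 normalized counts in 12-month Pdgfrb-KO and 3000, 4380, 3258 and 2399 in 12-month controls, with no overlap (log2 fold change -0.77, adjusted p = 0.016 from limma). The counts are per gene, so reads of cells outside the Sma lineage and reads outside the deleted part are included. Marker lists of other cell types moved between the groups. The 8 macrophage markers summed to 58842 to 101700 in 12-month Pdgfrb-KO, 29605 to 42428 in 12-month controls and 14694 to 21479 in 2-month controls, and these ranges did not overlap. In bulk RNA, fewer cells of a type and less RNA per cell cannot be told apart.

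The 10 genes were expressed in every library, with normalized counts between 148 (Elovl6) and 9138 (Scd1), and all 10 passed the filter on low values in each comparison. Levels were compared between genes per kilobase of summed exons. On that scale Scd1 stood highest in all 3 groups, with mean normalized counts per kilobase of 1445 in 12-month Pdgfrb-KO, 1794 in 12-month controls and 1177 in 2-month controls. Acly followed with 676.5, 836 and 911 per kilobase, then Scd2 with 522, 393 and 422 per kilobase. Thrsp came next, and its libraries overlapped with those of Scd2 in each group, so that the order of Scd2 and Thrsp is not settled. In 12-month Pdgfrb-KO the libraries of Acly and Scd2, Thrsp and Dgat1, Fasn and Dgat2, Dgat2 and Me1, and Acaca and Elovl6 also overlapped. Fasn stood at 221 per kilobase in 12-month Pdgfrb-KO and 284 in 12-month controls, below Dgat1 (326 and 308), and at 373 in 2-month controls, above Dgat1 (291). In 12-month controls the libraries of Thrsp and Dgat1, Dgat1 and Fasn, and Acaca and Elovl6 overlapped, and in 2-month controls those of Thrsp and Fasn. Dgat2, Me1, Acaca and Elovl6 filled the lower places in every group, with Acaca and Elovl6 lowest at 34.1 and 24.9 per kilobase in 12-month Pdgfrb-KO, 43.5 and 34.4 in 12-month controls, and 46.9 and 28.03 in 2-month controls.

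**Figure D1:**
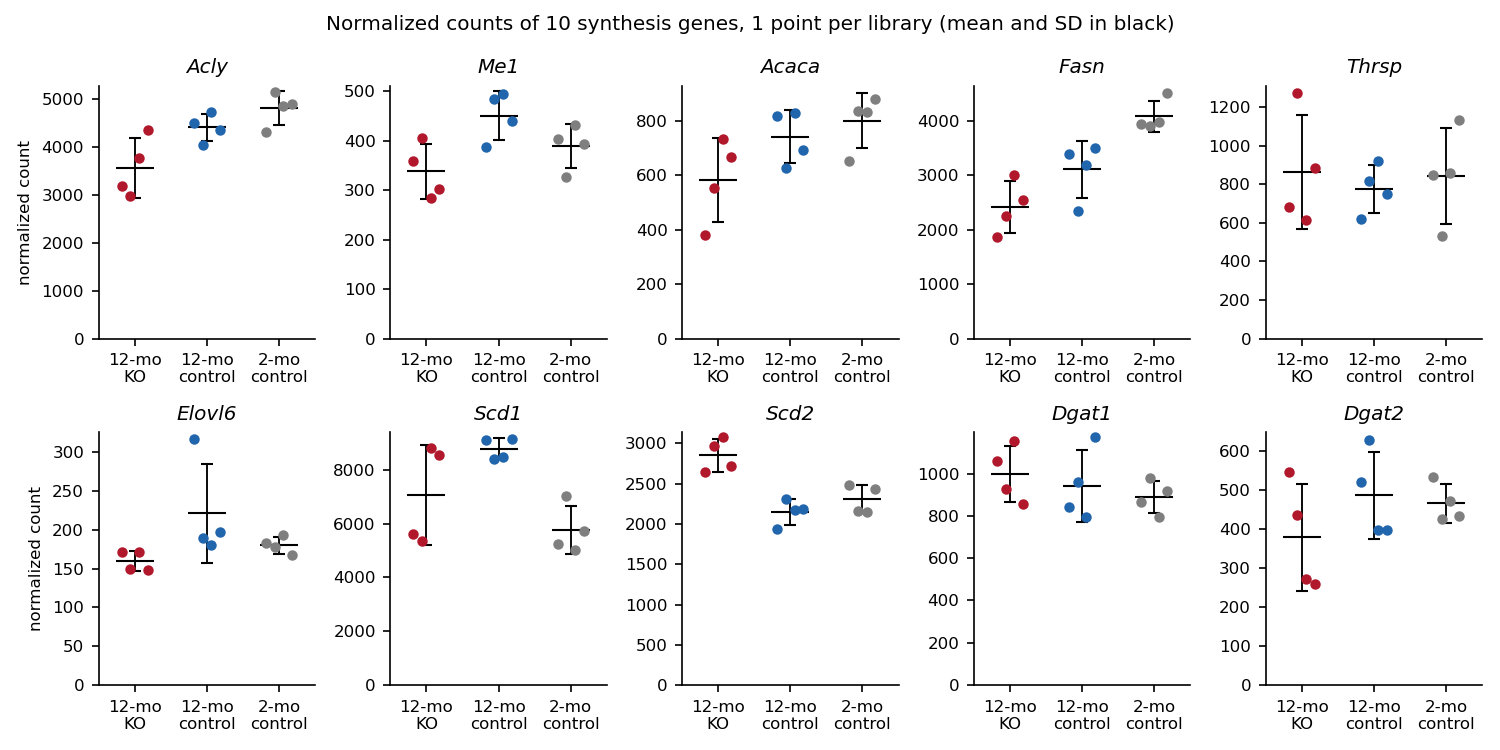
Normalized counts of the 10 genes (vertical axes, linear, starting at 0) in 12-month Pdgfrb-KO (red), 12-month controls (blue) and 2-month controls (grey). Each point is 1 library (replicates 1 to 4 from left to right) and black marks show the mean and SD of 4 libraries. Fasn lies between 1863 and 3005 in 12-month Pdgfrb-KO and at 3910 or above in 2-month controls, Scd1 is tightly grouped at 8409 to 9138 in 12-month controls, and Scd2 is at 2641 or above only in 12-month Pdgfrb-KO.

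The genes were placed on the mouse genome GRCm38 with GENCODE vM21, counted from 1. Acly (chr11:100476353-100528000, minus strand), Acaca (chr11:84129672-84401651, plus strand) and Fasn (chr11:120805846-120824547, minus strand) lie on chromosome 11. Scd1 (chr19:44394455-44407879, minus strand) and Scd2 (chr19:44293674-44306864, plus strand) are neighbours on chromosome 19. Thrsp (chr7:97412938-97417730, minus strand) and Dgat2 (chr7:99153658-99182719, minus strand) are both on chromosome 7. Me1 is at chr9:86581371-86695953 (minus strand), Elovl6 at chr3:129532355-129638495 (plus strand) and Dgat1 at chr15:76502015-76511953 (minus strand). The annotated genes that overlap them had group means of at most 1.75 normalized counts. Scd1 and Scd2 are close paralogs, and how reads that map to both were counted is not given in the sources used here. The other paralogs of this cluster, Scd3 and Scd4, were near 0, at 0.25 and 6 normalized counts in 12-month Pdgfrb-KO, 12.3 and 5.50 in 12-month controls, and 0 and 9.50 in 2-month controls.

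Fasn and Acly were the members that were lower in 12-month Pdgfrb-KO than in 2-month controls, and the 250 bases before their starts are shown because SREBP and its partner NF-Y are known to act at promoters of this pathway. RefSeq (GRCm38.p6) gave a promoter for 6 of the 10 genes. The sequences run 5′ to 3′ along the gene, from chr11:120824548-120824797 for Fasn and chr11:100528001-100528250 for Acly (both minus strand), and capitals mark the CCAAT box on either strand.
Fasn: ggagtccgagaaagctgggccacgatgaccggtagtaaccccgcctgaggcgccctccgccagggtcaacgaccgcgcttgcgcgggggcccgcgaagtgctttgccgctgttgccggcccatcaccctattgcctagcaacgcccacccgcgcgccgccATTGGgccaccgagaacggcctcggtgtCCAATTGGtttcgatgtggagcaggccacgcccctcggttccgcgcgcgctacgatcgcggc
Acly: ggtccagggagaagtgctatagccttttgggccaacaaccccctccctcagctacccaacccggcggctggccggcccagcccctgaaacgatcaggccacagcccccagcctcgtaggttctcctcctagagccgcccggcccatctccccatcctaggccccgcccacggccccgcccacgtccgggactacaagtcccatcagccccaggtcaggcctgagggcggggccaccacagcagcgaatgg
The Fasn window held 3 CCAAT boxes on the 2 strands, with first bases at -90, -62 and -59 from the start, the last of which overlaps its neighbour, and the Acly window held 0. A CCAAT box was in 33.8% of 32851 RefSeq promoter windows of the same length. The SREBP motif TCACNCCAC was in 1.05% of windows and the E-box CACGTG in 6.02%, searched on both strands, and neither was in the windows of the 6 matched genes. The Acaca window (chr11:84195188-84195437) lies inside the gene as placed above, so the outermost start of Acaca was not searched. Me1 had a window at its outermost start and another inside the gene (chr9:86687278-86687527). The motif matches describe letters only.

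With age, Scd1 rose and Fasn fell, and the other 8 genes did not pass the test. This is 2 of 10 genes, beside 22.7% of the 16399 genes tested (11.3% higher and 11.4% lower), so the share of members called was close to the background. The median log2 fold change of the 10 genes was -0.02, against -0.01 for all genes tested, with 5 of the 10 below 0 beside 50.9% of all genes. At an unadjusted p under 0.05 the same 2 members stood beside 37.0% of all genes. Scd1, which makes oleate from stearate, had 9091, 8409, 8468 and 9138 normalized counts in 12-month controls and 5244, 7009, 5031 and 5741 in 2-month controls. Every 12-month control lay above every 2-month control, with means of 8777 ± 392 and 5756 ± 887 (SD, n = 4 each), a difference of 0.62 ± 0.11 on the log2 scale (limma estimate with its standard error, adjusted p = 0.0021). Fasn, which makes palmitate, had 3385, 2349, 3187 and 3505 normalized counts in 12-month controls and 3940, 3910, 3979 and 4507 in 2-month controls. Here every 12-month control lay below every 2-month control, with means of 3107 ± 522 and 4084 ± 283 (SD, n = 4 each), a difference of -0.41 ± 0.12 on the log2 scale (limma estimate with its standard error, adjusted p = 0.032). The Fasn call was lost without 2-month control replicate 2, 3 or 4 (adjusted p of 0.057, 0.065 and 0.094), without the variance trend and robust estimation (adjusted p = 0.073) and in 1 fit of 12 libraries (adjusted p = 0.076). Groups that did not overlap were found for these 2 members and for 24.8% of all genes tested.

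The remaining steps overlapped between the ages. The enzymes that feed Fasn had log2 fold changes of -0.12 (Acly), 0.21 (Me1) and -0.11 (Acaca), with adjusted p of 0.34, 0.21 and 0.54 from limma. Acly averaged 4414 ± 288 normalized counts in 12-month controls and 4812 ± 356 in 2-month controls, Acaca 743 ± 98.1 and 801 ± 101, and Me1 451 ± 48.8 and 390 ± 44.8 (SD, n = 4 each). Elovl6 had 317 normalized counts in 12-month control replicate 1 and 181 to 197 in the other 12-month controls, against 167 to 193 in 2-month controls. Scd2 averaged 2149 ± 157 in 12-month controls and 2308 ± 175 in 2-month controls (SD, n = 4 each), with an interval of the log2 fold change from -0.30 to 0.09. The acyltransferases Dgat1 and Dgat2 had log2 fold changes of 0.07 and 0.04, with intervals from -0.20 to 0.33 and from -0.28 to 0.36. Thrsp covered 622 to 919 normalized counts in 12-month controls and 531 to 1134 in 2-month controls. A p that misses the threshold does not show that these genes stayed level with age. A difference of the size estimated for Scd1 lies outside the 95% intervals of Acly, Me1, Acaca, Thrsp, Scd2, Dgat1 and Dgat2. It lies within that of Elovl6, which ran from -0.11 to 0.63.

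Markers of mature adipocytes moved in the same libraries. Of 12 such markers, 10 rose with age and 2 (Plin1 and Fabp4) did not pass. Adipoq, which encodes the hormone adiponectin, rose by 1.48 (log2; adjusted p = 5.6e-05 from limma) and Retn, which encodes resistin, rose by 1.59 (log2). Without Fabp4, which alone made up most of their sum, the markers summed to 7036 to 8796 in 12-month controls and 4127 to 4709 in 2-month controls. These sums did not overlap, and none of the 12 was at 0 in any library. With age 6 of 8 macrophage markers and 5 of 7 progenitor markers also rose, and the 7 Schwann cell markers and 5 of 6 mural cell markers fell. These marker counts with age, adipocyte markers included, stand beside 11.3% higher and 11.4% lower of all genes tested. Over the 12 libraries the level of Fasn had an r of 0.78 with the mean log2 level of the mural markers. That of Scd1 had an r of 0.65 with the mean log2 level of the progenitor markers. Both values include the differences between groups. After the group means were taken off, they were -0.14 and 0.07. With group differences included, Fasn also had an r of -0.86 with the macrophage markers, and Scd1 of -0.70 with the Schwann cell markers. Without the group differences, these values were -0.36 for Fasn and -0.68 for Scd1. With the mean log2 level of the adipocyte markers, Scd1 had an r of 0.46 and Fasn of -0.64 with group differences included. Without them, the values were -0.64 for Scd1 and -0.44 for Fasn. The part of these cell types in the Scd1 and Fasn results was not tested.

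In 12-month Pdgfrb-KO, Scd2 was higher than in 12-month controls and the other 9 genes did not pass the test. This 1 of 10 stands beside 9.42% of the 16344 genes tested (4.96% higher and 4.46% lower). Scd2, the desaturase isoform known from brain and other tissues outside the liver, had 2641, 2969, 3079 and 2717 normalized counts in 12-month Pdgfrb-KO and 1933, 2308, 2171 and 2184 in 12-month controls. All 4 12-month Pdgfrb-KO libraries were above all 4 12-month controls, with means of 2852 ± 207 and 2149 ± 157 (SD, n = 4 each), a difference of 0.41 ± 0.10 on the log2 scale (limma estimate with its standard error, adjusted p = 0.031). The size was stable, from 0.36 to 0.44 over 19 alternatives, but the call was lost in 9 of them, among them the fits without 12-month control replicate 1, 3 or 4 or 12-month Pdgfrb-KO replicate 1, 2 or 3 (adjusted p of 0.050 to 0.092).

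Most other members had lower means in 12-month Pdgfrb-KO, without passing. Fold changes were below 0 for 7 of the 10 genes, beside 51.6% of all genes tested, and their median was -0.36 on the log2 scale, against -0.01 for all genes. At an unadjusted p under 0.05, 4 members stood out, beside 26.8% of all genes, of which 3 were lower (Acly, Me1 and Elovl6), beside 13.1% of all genes, and at an adjusted p under 0.05 from limma 0 were. Acly had 3179, 2972, 3771 and 4364 normalized counts in 12-month Pdgfrb-KO and 4501, 4049, 4739 and 4368 in 12-month controls (log2 fold change -0.32, adjusted p = 0.15). Its replicates 1 to 3 of 12-month Pdgfrb-KO were below every 12-month control and replicate 4 lay among them. Me1 had 360, 405, 284 and 303 normalized counts in 12-month Pdgfrb-KO and 387, 484, 494 and 440 in 12-month controls (log2 fold change -0.42, adjusted p = 0.087). Elovl6 did not overlap, with 171, 149, 172 and 148 normalized counts in 12-month Pdgfrb-KO and 317, 190, 181 and 197 in 12-month controls (log2 fold change -0.43, adjusted p = 0.17), and without 12-month control replicate 1 its log2 fold change was -0.24 (adjusted p = 0.37 from limma). Groups that did not overlap were found for 2 of 10 members, Scd2 and Elovl6, beside 17.1% of all genes.

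The central synthase and the acyltransferases overlapped. Fasn had 1863, 2257, 3005 and 2553 normalized counts in 12-month Pdgfrb-KO, and 3385, 2349, 3187 and 3505 in 12-month controls, so that replicates 3 and 4 of 12-month Pdgfrb-KO lay within the control range and replicates 1 and 2 below it (log2 fold change -0.37, interval -0.73 to 0.00, adjusted p = 0.19 from limma). Acaca averaged 583 ± 155 in 12-month Pdgfrb-KO and 743 ± 98.1 in 12-month controls (SD, n = 4 each, adjusted p = 0.23). Dgat2 had 546, 437, 273 and 260 normalized counts in 12-month Pdgfrb-KO and 520, 628, 398 and 398 in 12-month controls (log2 fold change -0.40, adjusted p = 0.32). Dgat1 averaged 998 ± 134 in 12-month Pdgfrb-KO and 942 ± 170 in 12-month controls (SD, n = 4 each), and Thrsp 863 ± 295 and 776 ± 124, with adjusted p of 0.73 and 0.78.

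**Figure D2:**
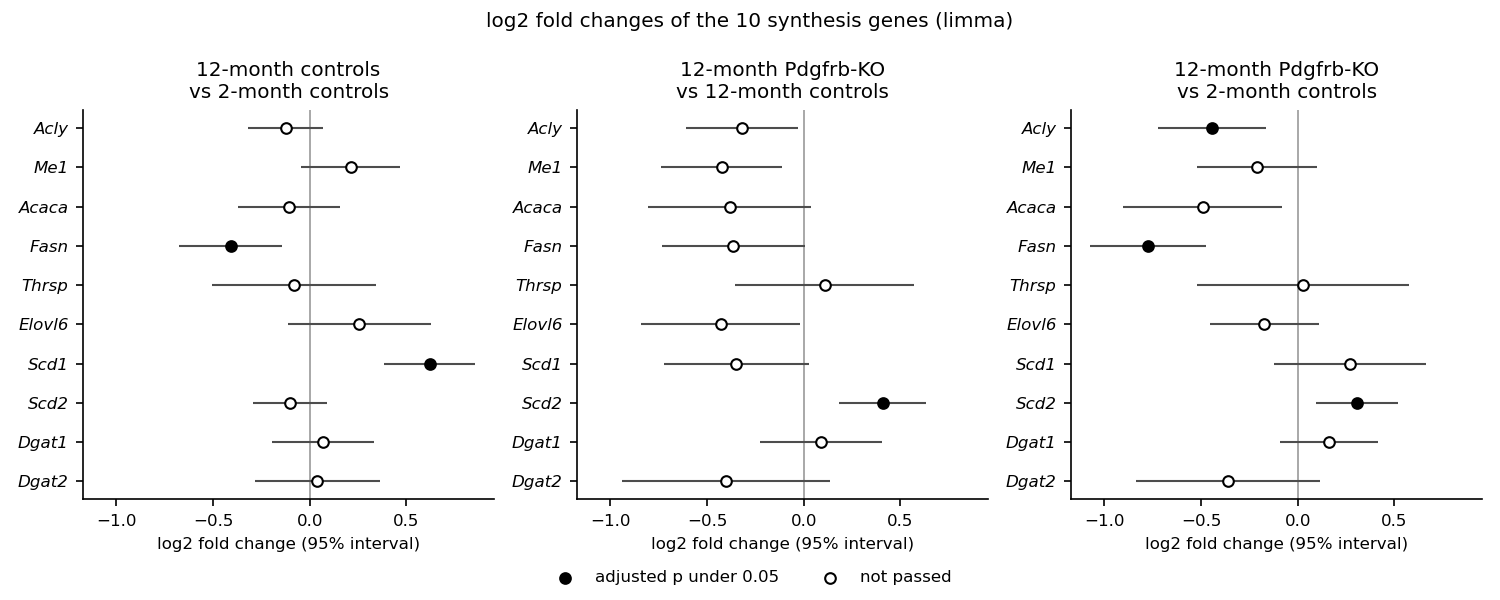
log2 fold changes of the 10 genes (horizontal axis) with 95% intervals from limma on log2(value + 1), for 12-month controls against 2-month controls, 12-month Pdgfrb-KO against 12-month controls and 12-month Pdgfrb-KO against 2-month controls. Filled points passed an adjusted p under 0.05 and open points did not. Scd1 (0.62) and Fasn (-0.41) passed with age, Scd2 (0.41) with Pdgfrb deletion, and Fasn (-0.77), Acly (-0.44) and Scd2 (0.31) between 12-month Pdgfrb-KO and 2-month controls.

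Between 12-month Pdgfrb-KO and 2-month controls, which differ in age and genotype at once, Fasn and Acly were lower and Scd2 was higher. This is 3 of 10 genes, beside 45.1% of the 16370 genes tested, with 1 higher beside 22.4% and 2 lower beside 22.7%. Of the 10, 4 had an unadjusted p under 0.05 beside 52.8% of all genes (3 of them lower, beside 26.7%), 6 were below 0 beside 51.1%, and 2 did not overlap beside 40.8%. Fasn averaged 2420 ± 482 normalized counts in 12-month Pdgfrb-KO and 4084 ± 283 in 2-month controls (SD, n = 4 each), with no overlap, a difference of -0.77 ± 0.14 on the log2 scale (limma estimate with its standard error, adjusted p = 0.0013), and it passed in all 19 alternatives. Acly averaged 3572 ± 628 in 12-month Pdgfrb-KO and 4812 ± 356 in 2-month controls (SD, n = 4 each), a difference of -0.44 ± 0.13 on the log2 scale (limma estimate with its standard error, adjusted p = 0.016). The Acly call was lost when 12-month Pdgfrb-KO replicates 1 and 2 were left out together (log2 fold change -0.24, adjusted p = 0.095). Scd2 had a difference of 0.31 ± 0.10 on the log2 scale (limma estimate with its standard error, adjusted p = 0.024) with no overlap, and lost its call in 5 of 19 alternatives, among them the fits without 12-month Pdgfrb-KO replicate 3 or 2-month control replicate 2 or 3 (adjusted p of 0.051, 0.074 and 0.079). Acaca, at 583 ± 155 in 12-month Pdgfrb-KO and 801 ± 101 in 2-month controls (SD, n = 4 each), sat at the threshold with an adjusted p of 0.051 and passed in 8 of 19 alternatives. The 12-month controls enter the first 2 comparisons and the 2-month controls the first and the last, so these fold changes are not independent of each other.

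Of the desaturases, Scd1 passed with age and Scd2 with Pdgfrb deletion, and their ratio set the 12-month controls apart. Normalized counts of Scd1 over Scd2 were 2.12, 1.80, 2.86 and 3.14 in 12-month Pdgfrb-KO, 4.70, 3.64, 3.90 and 4.18 in 12-month controls, and 2.12, 3.24, 2.34 and 2.35 in 2-month controls. Every 12-month control had a higher ratio than every other library, and the 12-month Pdgfrb-KO and 2-month control libraries overlapped. The ratio was chosen after the values were seen and was given no test. Scd1 itself fell into 2 levels in 12-month Pdgfrb-KO, with 5594 and 5348 normalized counts in replicates 1 and 2 and 8797 and 8535 in replicates 3 and 4. Its adjusted p was 0.22 against 12-month controls and 0.24 against 2-month controls. Without replicates 1 and 2 its log2 fold change against 2-month controls was 0.60 (adjusted p = 0.0035 from limma). Those libraries were left out after their low Scd1 values were seen, so this p is no test of Scd1. The ratio of Dgat1 to Dgat2 ran from 1.94 to 4.23 in 12-month Pdgfrb-KO, 1.53 to 2.95 in 12-month controls and 1.63 to 2.29 in 2-month controls, so its groups overlapped.

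**Figure D3:**
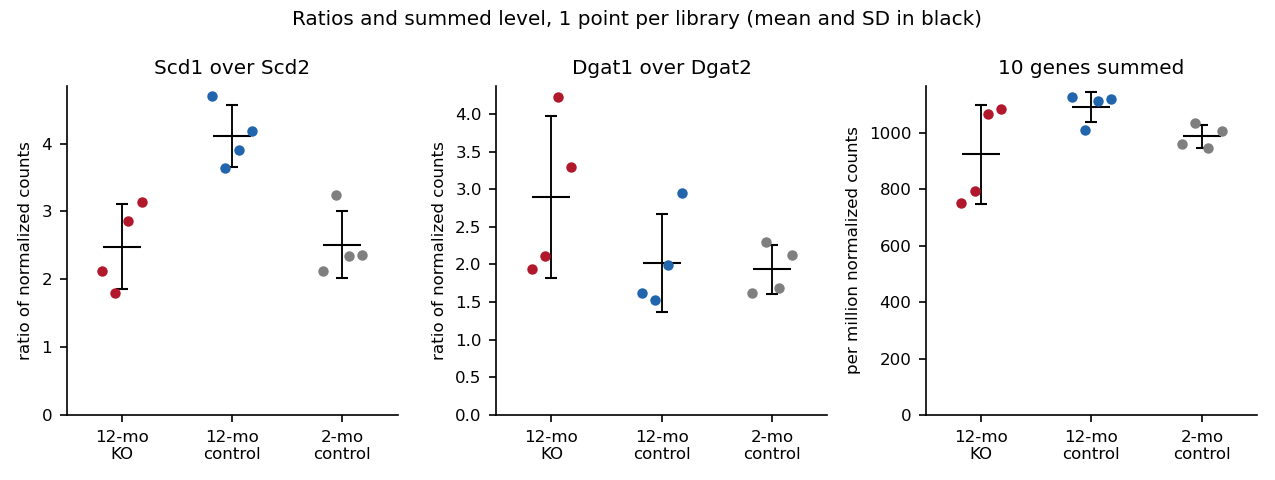
Ratio of normalized counts of Scd1 to Scd2 (left), of Dgat1 to Dgat2 (middle) and the sum of the 10 genes per M normalized counts (right), all on linear axes from 0. Each point is 1 library of 12-month Pdgfrb-KO (red), 12-month controls (blue) or 2-month controls (grey), and black marks show the mean and SD of 4 libraries. The Scd1 to Scd2 ratio is 3.64 or above in the 12-month controls and 3.24 or below elsewhere, and 12-month Pdgfrb-KO replicates 1 and 2 have the lowest sums, 753 and 793.

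The split within 12-month Pdgfrb-KO was shared by several members. Summed over the 10 genes, replicates 1 and 2 had 753 and 793 normalized counts per M and replicates 3 and 4 had 1068 and 1085, beside 1012 to 1126 in 12-month controls and 946 to 1035 in 2-month controls. Acly, Acaca, Fasn and Scd1 were lower in replicates 1 and 2 than in replicates 3 and 4, whereas Dgat2 and Me1 were higher there. Replicates 1 and 2 were also the shallowest libraries (13.8 and 15.6 M estimated counts), had the highest macrophage sums (101700 and 95252, against 71011 and 58842 in replicates 3 and 4), and the highest Fabp4-led adipocyte marker sums (119610 and 121248, against 60521 and 66926). Without Fabp4 the adipocyte markers summed to 5978, 11793, 7175 and 8024 in replicates 1 to 4, so that replicate 1 was the lowest and replicate 2 the highest. B and T cell markers summed to 17376 and 14776 in replicates 1 and 2 and to 21808 and 24547 in replicates 3 and 4. The part of depth and of these cell types in the split was not tested. Without replicates 1 and 2, Scd2 no longer passed against 12-month controls (log2 fold change 0.43, adjusted p = 0.065 from limma), while Me1 (-0.61, adjusted p = 0.034) and Dgat2 (-0.84, adjusted p = 0.030) did. These libraries were left out after the split was seen, and Me1 and Dgat2 were higher in them. The calls of Me1 and Dgat2 are therefore no test of these genes.

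Across all 12 libraries, after the group means were taken off, the 10 genes did not vary as a block. The median Pearson r over their 45 pairs was -0.02, with 8 pairs over 0.5 and 25 below 0. One set held Acly, Acaca, Fasn and Scd1, with r of 0.81 for Acly and Scd1, 0.80 for Acaca and Fasn and 0.72 for Acly and Acaca. Dgat2 ran against this set, with r of -0.84 with Acly, -0.83 with Acaca, -0.83 with Fasn and -0.78 with Scd1, and Me1 ran with Thrsp (0.75) and against Scd1 (-0.89). Among the 8 control libraries alone r was 0.51 for Acly and Scd1, 0.57 for Acaca and Fasn, 0.92 for Acly and Acaca, -0.75 for Acly and Dgat2 and -0.86 for Me1 and Scd1. The values of Scd1 with Acaca, Fasn and Dgat2 were nearer to 0 there, at 0.29, 0.19 and -0.37, against 0.66, 0.59 and -0.78 over 12 libraries. These are descriptions over libraries whose cell makeup and depth also varied. B and T cell markers varied in the same way, with r of 0.76 with Fasn, 0.74 with Scd1, 0.73 with Acly, 0.52 with Acaca and -0.77 with Dgat2. Other marker lists varied with members about as closely. Schwann cell markers had an r of -0.80 with Acly, and skeletal muscle markers of 0.76 with Me1 and with Thrsp. Of 11177 genes with a mean of at least 100, those whose level over 12 libraries was most like that of Fasn were Usp28, Bicdl1, Cd4, Gramd4 and Brd1 (r of 0.97, 0.97, 0.97, 0.96 and 0.96). Among the members, Acaca was nearest to Fasn (r = 0.84, place 848), followed by Acly (r = 0.82, place 989). Cd4, the T cell coreceptor, had 611, 737, 1126 and 1165 normalized counts in 12-month Pdgfrb-KO, 1508, 743, 1348 and 1364 in 12-month controls and 2005 to 2174 in 2-month controls, and its lowest 12-month control, replicate 2, was also the lowest for Fasn.

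A list of 41 further genes of the pathway was followed, chosen with earlier results of these data known. With age, 36 could be tested, of which 4 rose (G6pdx, Pgd, Mid1ip1 and Agpat4), 2 fell (Acacb and Elovl5) and 30 did not pass, beside 11.3% higher and 11.4% lower of all genes, with a median log2 fold change of 0.05. G6pdx and Pgd encode the NADPH-producing steps of the pentose phosphate pathway, and rose by 0.31 and 0.33 on the log2 scale (adjusted p of 0.030 and 0.012 from limma). Acacb, the acetyl-CoA carboxylase at the mitochondrial membrane, had 426 to 591 normalized counts in 12-month controls and 674 to 894 in 2-month controls (log2 fold change -0.58, adjusted p = 0.0065). Without 2-month control replicate 2, and likewise without replicate 3, 3 genes of the list passed in place of 6.

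Between 12-month Pdgfrb-KO and 12-month controls, 34 genes of that list could be tested. Idh1 was higher in 12-month Pdgfrb-KO, Acss2 and Fads2 were lower and 31 did not pass. This stands beside 4.96% higher and 4.46% lower of all genes, with a median of 0.03. Idh1, the cytosolic isocitrate dehydrogenase that yields NADPH, had 1954, 1964, 1673 and 1493 normalized counts in 12-month Pdgfrb-KO and 970, 1363, 1254 and 1155 in 12-month controls (log2 fold change 0.58, adjusted p = 0.022 from limma). Acss2, which makes acetyl-CoA from acetate, had 270, 204, 194 and 313 normalized counts in 12-month Pdgfrb-KO and 630, 404, 465 and 482 in 12-month controls (log2 fold change -1.02, adjusted p = 0.0069). Fads2, the desaturase of polyunsaturated fatty acids, had 295, 318, 244 and 259 normalized counts in 12-month Pdgfrb-KO and 496, 620, 562 and 429 in 12-month controls (log2 fold change -0.91, adjusted p = 0.0035). None of these 3 genes overlapped between 12-month Pdgfrb-KO and 12-month controls. Against 2-month controls, 9 of 34 were higher and 6 lower in 12-month Pdgfrb-KO, beside 22.4% and 22.7% of all genes, a share near the background, with Acss2 (-1.35) and Fads2 (-1.13) lower and Idh1 (0.90) higher.

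**Figure D4:**
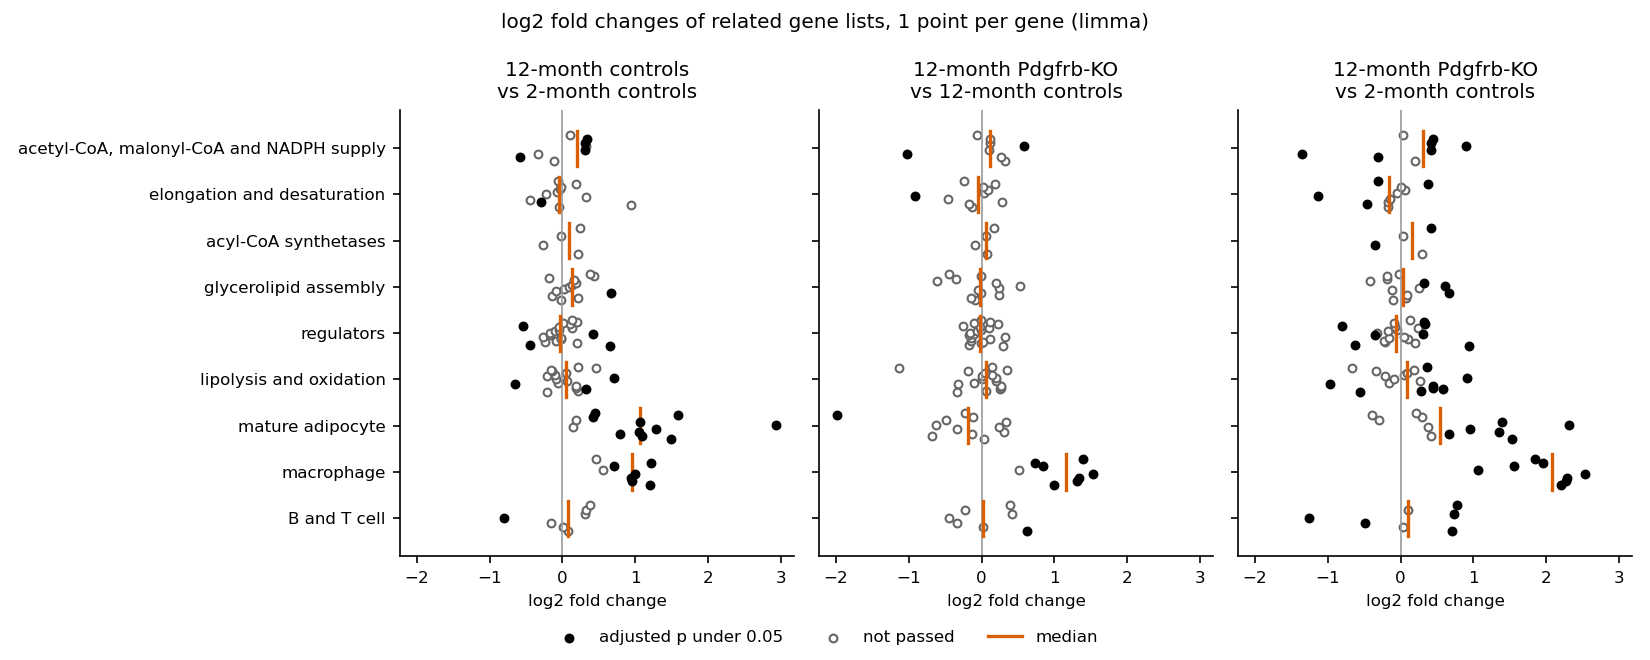
log2 fold changes (horizontal axes) of genes in related lists (rows), 1 point per gene, for the same 3 comparisons. Filled points passed an adjusted p under 0.05 in limma, open points did not, and the orange line is the median of the list. Regulators and lipolysis or oxidation genes centre near 0 in each panel, whereas macrophage markers have medians of 0.95, 1.15 and 2.08 from left to right.

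Regulators of the pathway were called at 4 of 20 with age, beside 22.7% of all genes, 0 of 20 with Pdgfrb deletion, beside 9.42%, and 7 of 20 between 12-month Pdgfrb-KO and 2-month controls, beside 45.1%. Nr1h3 (the LXR alpha gene) and Cebpa rose with age, by 0.42 and 0.65 on the log2 scale, Insig1 and Slc2a4 fell by 0.45 and 0.55, and 16 did not pass. Insig1 holds SREBP in the endoplasmic reticulum and is itself a known SREBP target, and Slc2a4 is the insulin-responsive glucose transporter. With Pdgfrb deletion 0 of 20 passed in limma, and 0 had an unadjusted p under 0.05. Srebf1, which encodes SREBP-1, had 1919 to 2411 normalized counts in 12-month Pdgfrb-KO and 1513 to 2039 in 12-month controls (log2 fold change 0.23, adjusted p = 0.24). Against 2-month controls, Srebf1, Nr1h3, Cebpa and Usf1 were higher in 12-month Pdgfrb-KO and Insig1, Nr1h2 and Slc2a4 were lower. Srebf1 was thus higher by 0.33 (adjusted p = 0.025 from limma) in the comparison in which Fasn and Acly were lower. Without 2-month control replicate 3 the count of regulators called was 4 in place of 7.

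Genes of the opposing process, lipolysis and fatty acid oxidation, numbered 17 tested of 18. With age 2 of the 17 rose, beside 11.3% of all genes, and 1 fell, beside 11.4%. The values of the gene that fell are not reported here. G0s2, the inhibitor of adipose triglyceride lipase, and Acadm, a dehydrogenase of mitochondrial beta-oxidation, rose by 0.71 and 0.32 on the log2 scale. With Pdgfrb deletion 0 of 17 passed in limma, beside 9.42% of all genes, and 4 had an unadjusted p under 0.05, beside 26.8%. Against 2-month controls 6 were higher in 12-month Pdgfrb-KO, beside 22.4% of all genes, among them Acadm (0.58) and Acads (0.45). There 2 were lower, beside 22.7% of all genes, among them Abhd5, the coactivator of adipose triglyceride lipase (-0.55).

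The marker lists moved beside these results. With Pdgfrb deletion 7 of 8 macrophage markers rose, Mrc1 by 1.39 and C1qc by 1.53 on the log2 scale, and the 4 skeletal muscle markers fell. These counts stand beside 4.96% higher and 4.46% lower of all genes. Of the 7 progenitor markers Dcn, Pi16 and Dpp4 fell and 4 did not pass, with log2 fold changes from 0.11 (Lum) to 0.32 (Ly6a) and a list median of 0.11. Of the 6 mural cell markers 0 passed in limma and 4 had an unadjusted p under 0.05. Of the 12 adipocyte markers only Retn passed (-1.98, adjusted p = 0.00079 from limma), with 33 to 70 normalized counts in 12-month Pdgfrb-KO and 157 to 210 in 12-month controls, and Adipoq had a log2 fold change of 0.04. The adipocyte markers without Fabp4 summed to 5978 to 11793 in 12-month Pdgfrb-KO, which overlapped with 7036 to 8796 in 12-month controls. The 6 markers of skin and gland epithelium summed to 109 to 183 in 12-month Pdgfrb-KO and 126 to 1344 in 12-month controls. Among them Krt14 and Krt5 were at 0 in all 12-month Pdgfrb-KO libraries and had 532 and 319 normalized counts in 12-month control replicate 1, whereas Krt8, Krt18 and Epcam were highest among the 12-month controls in replicate 4 (361, 430 and 299), where the sum was also highest and Elovl6 had 197 normalized counts. 12-month control replicate 1 had the high Elovl6 value of 317 and 48 normalized counts of Scd3, a desaturase known from skin, which was at 0 or 1 in every other library. The part of these cell types in the results on Scd2, Elovl6 and the other members was not tested.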

How the data were processed

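The 12 libraries were directional and made from polyadenylated RNA. The deposited unit is a score: a gene count that the authors scaled with DESeq2 1.26.0 and rounded. The submitters' processing notes also name Trim Galore 0.6.0, cutadapt, FastQC, STAR 2.7.0e and GRCm38. How reads were counted per gene is not given in the sources used here. One table holds both control groups and the other the 12-month controls and Pdgfrb-KO, and the 12-month values were equal in 100% of genes, so the 3 groups were set side by side. The first table had dates in place of 27 gene names and a wrong identifier for Cdk1, so names came from the other. In the second table, 4 lines with no gene and 5 empty columns were left out.

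The test was limma 3.58.1 (R 4.3.3) on log2(value + 1) (variance trend, robust, two-sided, group as the only term) on the 8 libraries of each comparison, keeping genes that reached 10 in 4 or more libraries. Benjamini-Hochberg adjustment covered all genes tested, with a threshold of 0.05. Adding 1 shrinks fold changes of low genes. The labels call the libraries biological replicates, and p-values measure the spread between them. The alternatives were pseudocounts of 0.5 and 5, no filter, a mean of at least 50, upper quartile rescaling, quantile normalization, a block for the replicate number, 1 fit of 12 libraries, library weights, plain limma (no trend, not robust), and each library left out. Leaving out 12-month Pdgfrb-KO replicates 1 and 2 together was added after seeing the data.

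The members and the lists were chosen with earlier results of these data known. The text names the 10 members, Pdgfrb, the 5 genes most like Fasn and, per list and comparison, the 4 called genes of lowest p, 2 not called, and all genes of a count up to 5. Scd3 and Scd4, and Adipoq, Krt5 and Krt14 in the comparison with Pdgfrb-KO, were named after their values were seen, and so were both ratios. The values of 1 listed gene are not reported here. The fit and the depth estimate were tested on simulated data. With 50 genes changed at each size, the fit recovered 94% to 100% of changes of 0.5 or 2 times over the 3 comparisons. Of changes of 0.75 or 1.33 times it recovered 4% to 14%, so most changes of that size did not pass there. In the deposited data 1539 to 7389 genes passed, depending on the comparison. The share of changes of 0.75 or 1.33 times that the fit recovers in the deposited data was not tested. Other software was pandas 2.3.3, numpy 2.4.6 and matplotlib 3.10.9 under Python 3.11.15.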

Additional observations from a re-analysis of the deposited data

Results flagged for a closer look

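Each gene was checked in each group of 4 libraries, 30 checks in all, for a library that stands far from the other 3 (a gap to its neighbour, as a share of the range of the group, above Dixon's 95% critical value), which chance gives in about 1 of 20 groups. This picked out 2 values. Elovl6 had 317 normalized counts in 12-month control replicate 1, a gap of 0.88 of the range, the library in which Krt14, Krt5 and Scd3 were also highest, while the epithelial marker sum was highest in 2-month control replicate 3 (1767), where Elovl6 had 193 normalized counts. Fasn had 4507 normalized counts in 2-month control replicate 4, also a gap of 0.88 of the range, and without that library the age difference in Fasn had a log2 fold change of -0.36.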

How the results depend on the processing

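Of the member results that passed, that of Scd1 with age kept its direction and its call in every alternative run. So did that of Fasn between 12-month Pdgfrb-KO and 2-month controls, and no other that passed. Without the variance trend and robust estimation, and in 1 fit of 12 libraries, 1 member passed with age. With Pdgfrb deletion 0 passed without a filter or without trend and robust estimation, and 2 passed in 1 fit of 12 libraries or without 12-month Pdgfrb-KO replicates 1 and 2, which also left 5 members and 4 lipolysis and oxidation genes passing between 12-month Pdgfrb-KO and 2-month controls. In the wider pathway 3 genes passed with age without a filter, without trend and robust estimation and in 1 fit of 12 libraries, and 8 passed with Pdgfrb deletion in 1 fit of 12 libraries, in which lipolysis and oxidation had 1 call with age and 2 with Pdgfrb deletion, and 2542 of all genes passed with Pdgfrb deletion.

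The replicate number is no pairing here, as deviations of same-numbered samples had r from -0.28 to 0.38. With the replicate block, 2380 genes passed with Pdgfrb deletion, against 1539 without it, with 6 wider pathway genes and 1 lipolysis and oxidation gene among them. No other count moved by over 1.5 times under the block.

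Leaving out 1 library at a time gave 2356 to 3961 genes, 1 to 2 members and 3 to 7 wider pathway genes with age, the lowest count of genes without 2-month control replicate 4. With Pdgfrb deletion it gave 859 to 1878 genes, 0 to 2 members and 0 to 1 lipolysis and oxidation genes, and between 12-month Pdgfrb-KO and 2-month controls 4 to 8 regulators.

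Signs turned only for Thrsp, Dgat1 and Dgat2, none of which had passed. With 1 library left out the log2 fold change with age ran from -0.29 to 0.078 for Thrsp, -0.042 to 0.15 for Dgat1 and -0.092 to 0.13 for Dgat2, and that of Thrsp from -0.10 to 0.25 with Pdgfrb deletion and from -0.18 to 0.19 between 12-month Pdgfrb-KO and 2-month controls. Weights per library gave -0.0044 for Dgat2 with age and -0.012 for Thrsp between 12-month Pdgfrb-KO and 2-month controls, and without 12-month Pdgfrb-KO replicates 1 and 2 Thrsp had -0.059 against 12-month controls and -0.14 against 2-month controls. The cause of these shifts was not tested. With 4 libraries a group, the standard errors of the log2 fold changes of members ran from 0.09 to 0.25 in limma.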
